A study of Mus musculus with 10 samples.

Results

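The 52 genes described here are genes of striated muscle, most of them coding for the contractile and calcium-handling proteins of skeletal muscle fibres, measured in aorta of Npas2 mutant and wild-type mice. They were taken from the deposited table by gene symbol, with the probe set of the highest mean over all 10 arrays standing for each gene. A probe set was found for 51 of the 52 genes, out of 18193 genes that the platform's annotation names, and Xirp2 was not analysed here. RNA came from male mice, either Npas2 mutants kept on a C57Bl/6J background (5 arrays, labelled F12, F13, F18, F19 and F20) or wild-type C57Bl/6 mice (5 arrays, labelled F11, F14_2, F15, F16 and F17). No source used here gives the nature of the Npas2 mutation or says whether each array stands for a separate mouse, so p-values measure only the spread between arrays. All mice had lived for at least 2 weeks in 12 h light and 12 h dark, then for at least 30 h in constant darkness, and were killed at zeitgeber time 14 h. After perfusion with saline and water the aorta was dissected under a microscope from the arch to beyond the femoral bifurcation, although another label speaks of the thoracic aorta alone. Expression was measured on Affymetrix MOE 430V2 arrays, a whole-genome mouse platform on which a probe set of short oligonucleotides reports a transcript, and every level below is a deposited log2 value.

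Striated muscle contracts when calcium released from the sarcoplasmic reticulum binds troponin on the thin actin filament, which lets the heads of the thick-filament myosin pull on it. Fast and slow fibres build the same machine from different genes: Myh4, Myh1 and Myh2 code for the fast IIb, IIx and IIa myosin heavy chains, and Myh7 for the slow chain that is also the beta chain of the heart. Troponins, myosin light chains, calsequestrins and calsarcins likewise come in fast and slow forms, while Myh3 and Myh8 code for the embryonic and perinatal chains of developing or regenerating muscle. The muscle layer of the aortic wall is smooth muscle, which has its own myosin and actin genes, and skeletal muscle fibres are no part of the wall. Members are therefore given below as fast, slow and developmental forms, then the cardiac troponins, the scaffold of the sarcomere, calcium release, metabolism and myogenic regulators.

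RefSeq promoters of assembly GRCm38.p6, each running from 250 bases before to 50 bases after the annotated start, were at hand for 37 of the 51 measured members. The promoters of Acta1 and Ckm are shown because these genes carried the variation between arrays on both kinds of array, Myh4 because it was highest on a wild-type array, and Myh7 because it was high on mutant arrays alone. Capitals mark the E-box CANNTG, the core that myogenic helix-loop-helix factors are known to bind, which reads the same on both strands.
Acta1, chr8:123894726-123895025, minus strand: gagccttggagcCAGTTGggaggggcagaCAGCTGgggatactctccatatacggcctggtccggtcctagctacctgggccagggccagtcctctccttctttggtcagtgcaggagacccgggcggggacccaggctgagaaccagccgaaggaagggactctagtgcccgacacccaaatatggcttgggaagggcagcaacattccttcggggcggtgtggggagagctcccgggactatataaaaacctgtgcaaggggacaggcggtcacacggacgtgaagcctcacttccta
Ckm, chr7:19410844-19411143, plus strand: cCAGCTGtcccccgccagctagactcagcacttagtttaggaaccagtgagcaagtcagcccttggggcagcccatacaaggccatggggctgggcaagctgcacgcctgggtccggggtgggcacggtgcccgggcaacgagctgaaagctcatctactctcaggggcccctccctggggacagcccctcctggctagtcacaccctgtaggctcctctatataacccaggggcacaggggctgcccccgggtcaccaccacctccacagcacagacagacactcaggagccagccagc
Myh4, chr11:67237562-67237861, plus strand: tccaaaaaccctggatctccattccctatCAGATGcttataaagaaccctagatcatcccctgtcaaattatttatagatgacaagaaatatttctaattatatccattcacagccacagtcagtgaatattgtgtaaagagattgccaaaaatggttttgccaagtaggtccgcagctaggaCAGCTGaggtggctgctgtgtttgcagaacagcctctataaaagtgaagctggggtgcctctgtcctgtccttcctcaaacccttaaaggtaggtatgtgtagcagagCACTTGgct
Myh7, chr14:54994577-54994876, minus strand: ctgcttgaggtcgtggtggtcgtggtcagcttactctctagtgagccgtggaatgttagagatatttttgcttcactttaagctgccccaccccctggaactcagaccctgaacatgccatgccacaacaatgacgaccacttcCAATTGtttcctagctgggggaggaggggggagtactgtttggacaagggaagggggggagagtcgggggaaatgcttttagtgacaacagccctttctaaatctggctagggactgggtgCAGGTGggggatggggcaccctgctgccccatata
These windows held 2, 1, 3 and 2 E-boxes. An E-box was present in 31 of the 37 member promoters (83.8%), in 7 of 10 fast and 10 of 10 slow ones, and in 72.1% of 27025 promoters, 1 for each gene of the table. The letters TATAAA, searched on both strands, were in 9 member promoters (24.3%) and in 14.2% of all. A CArG box, the site of serum response factor, was found in 4 member promoters (10.8%) and in 1.57% of all, and an MEF2 site in 8 (21.6%) and in 3.26% of all. Both sites hold runs of A and T, but with the letters searched here a CArG box and an MEF2 site cannot overlap. These matches describe letters in a window, and binding was not measured.

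The 10 arrays were alike as a whole: their medians over all probe sets lay between 3.14 and 3.20, and pairs of arrays correlated at 0.986 to 0.996 across probe sets. Tests took in the 22340 probe sets, of 10945 genes, whose level exceeded the median of the array on 5 or more arrays. In limma's moderated test, Benjamini-Hochberg adjustment over all of these left 48 probe sets (0.215%) past the 0.05 threshold, with 21 having the higher level on mutant arrays and 27 the lower. The 2 Npas2 probe sets of the annotation averaged 3.43 and 2.38 on mutant arrays, against 3.71 and 2.37 on wild-type arrays, and the brighter of them had an adjusted p of 0.249 in the limma fit. That probe set was at 3.38 to 3.47 on mutant arrays and 3.44 to 3.96 on wild-type arrays. The groups overlapped there through wild-type F11, at 3.44. Where the 2 probe sets lie relative to the mutation is not given.

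Transcripts of skeletal muscle stood at widely different levels on the arrays of both groups, and the groups overlapped in every measured member. The mean was higher in the mutant for 48 of 51 members, where 42.4% of all tested probe sets had a higher mean in the mutant. The median change over the 51 members was 1.15 log2 units, mutant minus wild type, and over the 36 that passed the filter 1.29, beside -0.03 over all tested probe sets. No member passed the adjusted limma test in either direction (0 of 36, lowest adjusted p 0.255). At an unadjusted limma p under 0.05 the count was 3 of 36, where 15.3% of all tested probe sets reached that level. The members behind that count were all slow forms: the unadjusted p from limma was 0.0251 for Tnnc1, 0.0277 for Myl3 and 0.0329 for Myoz2. Of the 15 members too dim for the fit, 3 had an unadjusted exact permutation p under 0.05, namely Myh3, Tnni1 and Casq2, where 8.91% of all probe sets too dim for the fit reached that level. After median centring or quantile normalisation that count was 1. The groups were free of overlap in 0 of 51 members, where they were in 4.01% of tested probe sets. Single arrays moved the median change over the 51 members: it was 0.43 without mutant F12 and 1.76 without mutant F18, and 0.76 without wild-type F17 and 1.89 without wild-type F16. Since the members were chosen knowing that they vary, their counts describe them and test nothing. In such a bulk extract, fewer muscle cells and less muscle RNA per cell cannot be told apart.

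Acta1, the skeletal alpha-actin of the thin filament, shows the pattern in a bright gene. Its log2 level was 13.54, 6.20, 5.49, 11.63 and 12.34 on mutant arrays F12, F13, F18, F19 and F20, the order kept below. On wild-type arrays F11, F14_2, F15, F16 and F17, also in that order throughout, it was 4.17, 9.21, 7.94, 12.78 and 5.35. Mutant F12, F20 and F19 and wild-type F16 were high, wild-type F14_2 and F15 lay between, and the other 4 arrays were low, so the groups overlapped over nearly their whole range. The highest and lowest arrays differed by 9.37 log2 units, or 661-fold. The group means were 9.84 ± 3.72 in the mutant and 7.89 ± 3.39 in wild type (SD, n = 5 each), a change of 1.95 with a standard error of 1.95 (adjusted p = 0.638, limma). Without wild-type F16 the change was 3.17, and without wild-type F11 it was 1.02. Ckm, the creatine kinase of muscle, had 11.22, 2.48, 2.85, 9.12 and 9.63 on the mutant arrays, against 2.97, 5.97, 5.17, 10.94 and 3.04 on the wild-type arrays. The same 4 arrays were high and the same pair lay between (change 1.44, adjusted p = 0.748, limma). Without mutant F12 the Ckm change was 0.40, and without wild-type F16 it was 2.77.

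Most members shared this division of the arrays. The highest minus the lowest array came to more than 2 log2 units, or 4-fold, for 41 of 51 members, while 210 of all tested probe sets (0.94%) ranged so far. Of the 36 tested members 32 lay above the 99th percentile of that range, which was 1.98 log2 units. The median range was 5.19 over the members and 0.55 over all tested probe sets. Mutant F12 was the highest array for 35 members and mutant F19 and F20 for 3 each, while wild-type F16 was the highest for 9 and wild-type F17 for 1. Over all tested probe sets the shares were 10.23% for F12, 7.475% for F19, 8.223% for F20, 14.96% for F16 and 10.6% for F17. The count on F16 thus lies near its share, and only the count on F12 is far above. Counting the members that stood more than 2 log2 units above their own lowest array gave 40 on mutant F12, 1 on F13, 0 on F18, 31 on F19 and 30 on F20. On wild-type arrays the same count was 2 on F11, 13 on F14_2, 10 on F15, 25 on F16 and 0 on F17. The 4 highest arrays were F12, F19, F20 and F16 in 31 of 51 members (60.8%) and in 0.797% of tested probe sets.

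**Figure D1:**
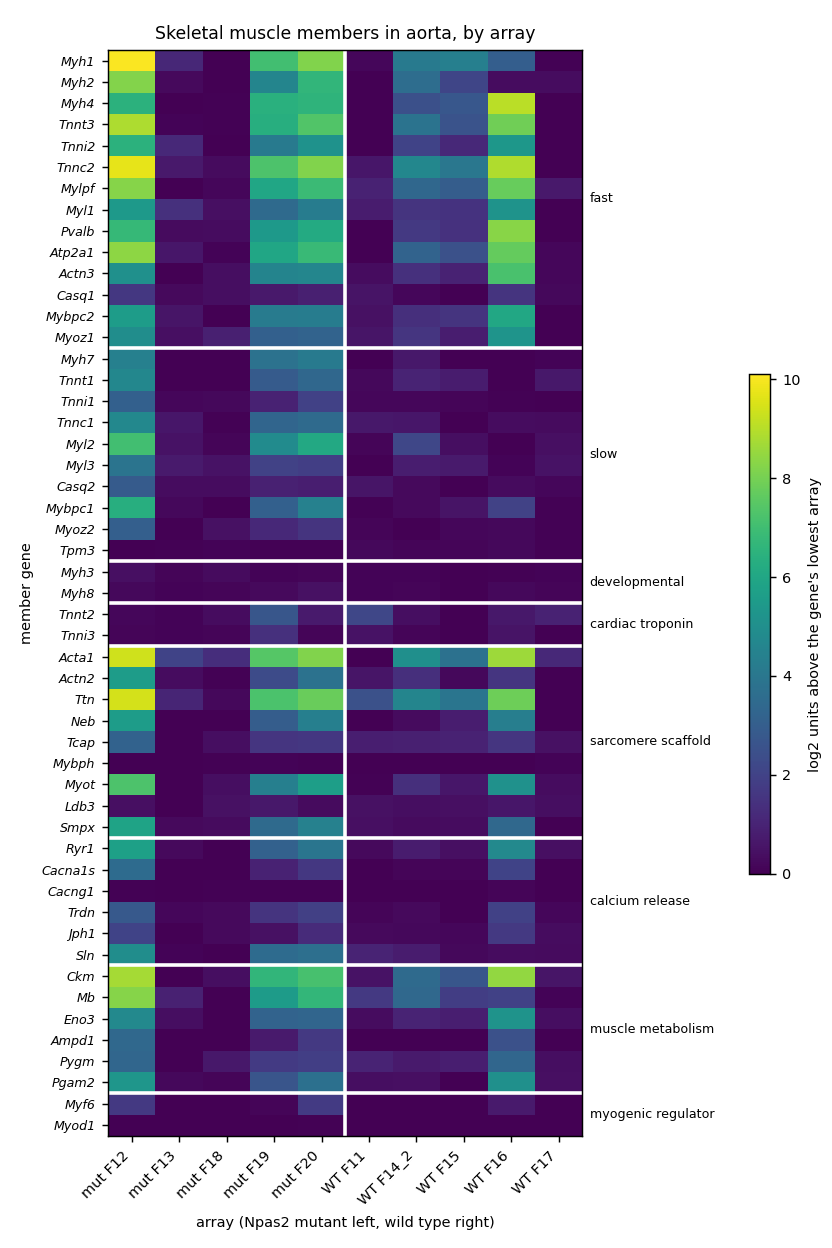
Log2 units of each of the 51 members above its own lowest array (colour scale), by array (columns, Npas2 mutant left of the white line, wild type right) and by class (rows). Mutant F12 is bright in most fast and slow rows. Mutant F19 and F20 are each more than 2 log2 units above the lowest array in 13 of 14 fast rows and 5 of 10 slow rows. Wild-type F16 is bright in the fast, scaffold and metabolic rows and dark in most slow rows.

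**Figure D2:**
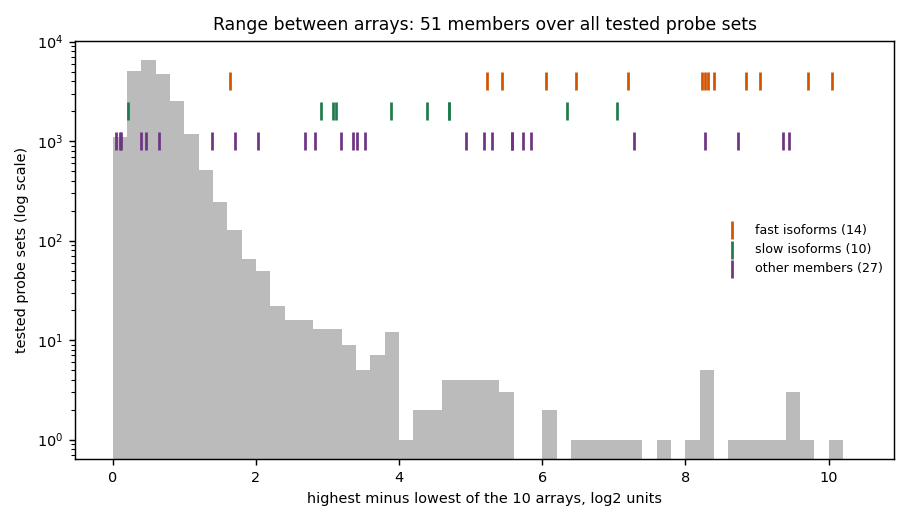
Histogram of the highest minus the lowest of the 10 arrays, in log2 units, over the 22340 tested probe sets (grey, log scale), with the ranges of the 51 members as coloured ticks. Most members lie beyond the 99th percentile of 1.98 log2 units, and Tpm3, Myh3 and Myh8 lie within the bulk.

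The fast forms had the widest ranges, and in 12 of 14 the 4 highest arrays were again F12, F19, F20 and F16. The mean of all 14 fast members was higher in the mutant, by 0.29 (Casq1, the fast calsequestrin) to 2.91 (Myh1) and a median of 1.36 log2 units, and none passed the test (0 of 14, adjusted p 0.423 to 0.818, limma; 0 at an unadjusted p under 0.05). Their ranges over the 10 arrays ran from 1.64 to 10.04, with a median of 8.25 log2 units. Averaged over the 14, the level was 10.30, 3.95, 3.67, 8.39 and 9.11 on the mutant arrays, against 3.77, 5.96, 5.50, 9.42 and 3.58 on the wild-type arrays. Wild-type F16 thus lay between mutant F12 and F20 in this average, and 13 of 14 fast members on F12, F19 and F20 and 12 of 14 on F16 stood more than 2 log2 units above their lowest array. Wild-type F14_2 and F15 had 8 and 7 such members.

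Within the fast class, the 3 adult fast myosin heavy chain genes parted mainly on wild-type F16. In all 3, mutant F12, F19 and F20 were high and wild-type F14_2 and F15 lay between these and the low arrays. Myh4 (IIb) had 9.17, 2.66, 2.71, 9.06 and 9.24 on the mutant arrays, against 2.68, 5.12, 5.40, 11.71 and 2.69 on the wild-type arrays. Wild-type F16 was highest, 5.82-fold above mutant F12. Myh1 (IIx) had 12.70, 3.76, 2.65, 9.69 and 10.83 on the mutant arrays, against 2.82, 6.82, 7.03, 5.68 and 2.72 on the wild-type arrays. Here wild-type F16 was below F14_2 and F15, and mutant F12 was 129.7-fold above it. Myh2 (IIa) had 11.07, 3.09, 2.86, 7.42 and 9.48 on the mutant arrays, against 2.84, 6.44, 4.94, 3.18 and 3.17 on the wild-type arrays. Wild-type F16, at the array medians for this gene, was among the low arrays, and mutant F12 stood at least 7.89 log2 units above it. The group means of Myh1 were 7.93 ± 4.46 in the mutant and 5.02 ± 2.11 in wild type (SD, n = 5 each), a change of 2.91 with a standard error of 1.91 (adjusted p = 0.475, limma). For Myh2 the change was 2.67 with a standard error of 1.55 (adjusted p = 0.423), and for Myh4 it was 1.05 with a standard error of 1.98 (adjusted p = 0.818). Without mutant F12 the change was 1.72 for Myh1 and 1.60 for Myh2. For Myh4 it was 2.60 without wild-type F16 and 0.34 without wild-type F11. A probe set of Myh1 that was not chosen gave 11.94, 3.15, 2.51, 9.47 and 10.46 on the mutant arrays and 3.23, 6.37, 6.71, 5.06 and 2.57 on the wild-type arrays, the same order of arrays at the top. A further Myh4 probe set reached at most 6.03 on mutant arrays, against 8.76 on wild-type F16. The chosen Myh1 probe set carries the suffix by which Affymetrix marks possible cross-hybridisation, so related chains may add to it.

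Apart from Tpm3, slow forms were highest on the same 3 mutant arrays, and on wild-type arrays only Myl2 on F14_2 and Mybpc1 on F16 stood more than 2 log2 units above the gene's lowest array. Myh7, the slow heavy chain, had 6.87, 2.49, 2.52, 6.28 and 6.63 on the mutant arrays, against 2.51, 3.14, 2.48, 2.48 and 2.57 on the wild-type arrays. Mutant F12, F19 and F20 stood apart, while wild-type F16 was as low as mutant F13 and F18. Myh7 did not pass the filter on dim probe sets, and an exact permutation test over all splits of the arrays gave p = 0.103, where the smallest p possible is 0.00794. The mean of 9 of the 10 slow members was higher in the mutant, with a median change of 1.52 log2 units over all 10 and the largest, 3.12, in Myl2. In 9 of the 10 the 3 highest arrays were mutant F12, F19 and F20, compared with 2 of 14 fast members and 2.905% of tested probe sets. None of the 5 tested slow members passed the adjusted test (adjusted p 0.255 to 0.362, limma), and 3 had an unadjusted p under 0.05. Averaged over the 10, the level was 7.62, 3.87, 3.79, 5.91 and 6.38 on the mutant arrays, against 3.83, 4.21, 3.89, 3.93 and 3.84 on the wild-type arrays. The wild-type arrays were alike in this average, F16 included, although F16 was among the highest arrays in the average of the fast forms.

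**Figure D3:**
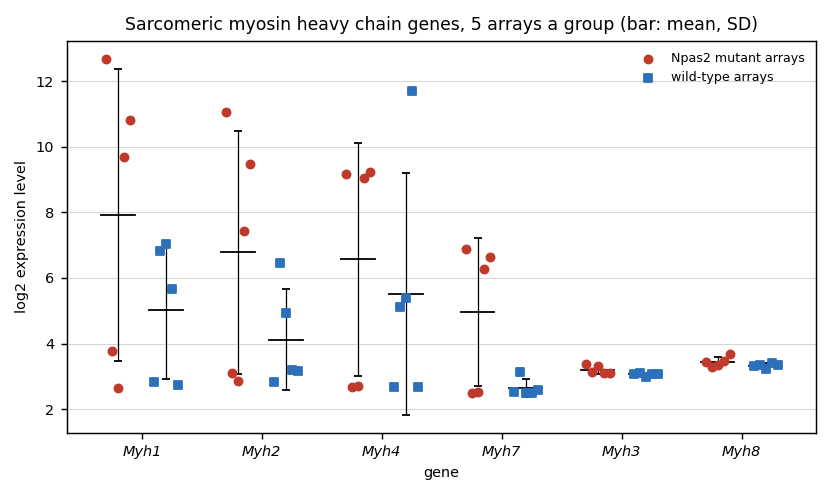
Log2 level of 6 sarcomeric myosin heavy chain genes on each Npas2 mutant array (red circles, left) and wild-type array (blue squares, right), with group mean and SD (black). The highest Myh4 point is a wild-type array, the 3 high Myh7 points are all mutant arrays, and Myh3 and Myh8 are flat.

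Each fast form was also set against the slow form of the same protein within an array. The probe sets of a pair differ in sensitivity, so only the change of this difference between arrays can be read. Where the slow form is dim, the difference still moves with the level of the fast form: Tnnt3 minus Tnnt1 was 4.33, 0.25, 0.22, 3.59 and 4.16 on the mutant arrays, against -0.05, 3.02, 2.00, 8.11 and -0.47 on the wild-type arrays. Mutant F12, F19 and F20 were thus above mutant F13 and F18 in the difference too. In all 9 pairs the fast minus slow difference was highest on wild-type F16, by 1.14 to 6.31 log2 units over the next array. For Myh4 minus Myh7 it was 2.29, 0.17, 0.19, 2.78 and 2.61 on the mutant arrays, against 0.17, 1.98, 2.92, 9.23 and 0.11 on the wild-type arrays. Wild-type F16 exceeded the next array, wild-type F15, by 6.31 log2 units here. Myh7 lay below the array medians on both arrays, at 2.48 on each, so both differences are lower bounds. The gap between these arrays thus follows Myh4, at 11.71 on F16 and 5.40 on F15. Across the groups, 8 of 9 pairs had a lower mean difference in the mutant and 1, the troponin I pair, a higher. No pair passed an exact permutation test (0 of 9, exact p 0.135 to 1, adjusted over the 9 pairs 0.643 to 1, with 0 at an unadjusted p under 0.05). In 5 of the 9 pairs the direction turned without wild-type F16: the Myh4 pair, for example, gave 0.31 in place of -1.28. The Tnnt3, Tnnc2 and Myl1 pairs among them also turned without mutant F18, so their direction did not rest on F16 alone. Without mutant F13 the Tnnt3 and Tnnc2 pairs turned too. The change of the Tnnt3 pair was only -0.007, and it turned without wild-type F14_2 as well.

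**Figure D4:**
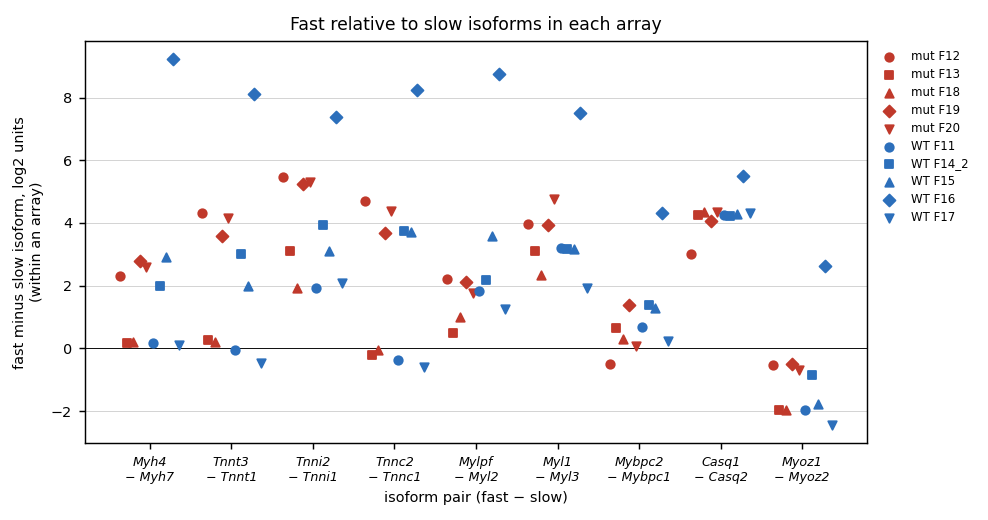
Fast minus slow isoform, in log2 units within an array, for the 9 isoform pairs on each Npas2 mutant array (red) and wild-type array (blue). Wild-type F16 (blue diamonds) is the highest point in every pair.

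Among the troponins, Tnnc2, the fast calcium-binding subunit, had 12.28, 3.27, 2.86, 9.85 and 10.75 on the mutant arrays, against 3.17, 7.26, 6.59, 11.48 and 2.58 on the wild-type arrays. Wild-type F16 was here between mutant F12 and F20. Tnnc1, the slow and cardiac subunit, had 7.58, 3.48, 2.92, 6.17 and 6.37 on the mutant arrays, against 3.54, 3.51, 2.88, 3.23 and 3.18 on the wild-type arrays. This gene had the lowest limma p of the tested members, with means of 5.30 ± 2.00 in the mutant and 3.27 ± 0.27 in wild type (SD, n = 5 each). Its change was 2.04 with a standard error of 0.78 (adjusted p = 0.255, limma). Mutant F13 and F18 nevertheless lay within the wild-type range. Tnnt3, the fast tropomyosin-binding subunit, had 12.32, 3.59, 3.52, 9.79 and 10.82 on the mutant arrays, against 3.47, 7.33, 6.06, 11.40 and 3.49 on the wild-type arrays. Its slow counterpart Tnnt1 had 7.99, 3.33, 3.30, 6.19 and 6.65 on the mutant arrays, against 3.52, 4.32, 4.06, 3.29 and 3.96 on the wild-type arrays, and wild-type F16 was its lowest array. Tnni2, the fast inhibitory subunit, had 10.69, 5.39, 4.23, 8.33 and 9.36 on the mutant arrays, against 4.22, 6.23, 5.36, 9.57 and 4.21 on the wild-type arrays. In this fast form wild-type F16 again lay between mutant F12 and F20. The chosen Tnni2 probe set carries the same cross-hybridisation suffix as that of Myh1. Another Tnni2 probe set, without it, ranged over 9.43 log2 units against 6.47. It had 2.46 to 11.89 on mutant arrays and 2.50 to 10.97 on wild-type arrays. The slow Tnni1 had 5.23, 2.28, 2.31, 3.08 and 4.07 on the mutant arrays, against 2.30, 2.31, 2.26, 2.19 and 2.11 on the wild-type arrays. Tnni1 was too dim for the limma fit and had an exact permutation p of 0.0317, unadjusted and among 15 such members, with 4 mutant arrays above every wild-type array.

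Myosin light chains divided in the same way. Mylpf, the fast regulatory chain, had 11.47, 3.20, 3.37, 9.19 and 10.07 on the mutant arrays, against 4.18, 6.55, 6.17, 10.96 and 3.88 on the wild-type arrays. Myl2, the slow and ventricular regulatory chain, had 9.27, 2.72, 2.37, 7.07 and 8.30 on the mutant arrays, against 2.35, 4.36, 2.59, 2.22 and 2.61 on the wild-type arrays. Wild-type F16 was the lowest of all 10 arrays for Myl2 and the second highest for Mylpf. Myl1, the fast essential chain and the brightest fast member, had 11.73, 7.69, 6.71, 9.77 and 10.53 on the mutant arrays, against 7.06, 7.82, 7.75, 11.46 and 6.29 on the wild-type arrays. Myl3, the slow and ventricular essential chain, had 7.76, 4.60, 4.37, 5.84 and 5.76 on the mutant arrays, against 3.87, 4.67, 4.59, 3.96 and 4.36 on the wild-type arrays. Its change was 1.38 with a standard error of 0.54 (adjusted p = 0.263, limma), and without mutant F12 it was 0.85.

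The remaining pairs code for thick-filament, calcium-store and Z-disc proteins. Mybpc2, the fast myosin-binding protein C, had 8.33, 3.35, 2.77, 6.96 and 7.00 on the mutant arrays, against 3.24, 4.12, 4.29, 8.81 and 2.77 on the wild-type arrays. The slow Mybpc1 had 8.82, 2.70, 2.48, 5.58 and 6.93 on the mutant arrays, against 2.54, 2.72, 2.99, 4.48 and 2.54 on the wild-type arrays. The fast minus slow difference of this pair was lowest on mutant F12, at -0.48, and highest on wild-type F16, at 4.33. Casq1 and Casq2 code for the calcium-binding proteins that fill the store. Casq1 had 8.68, 7.31, 7.42, 7.73 and 7.93 on the mutant arrays, against 7.55, 7.21, 7.04, 8.54 and 7.26 on the wild-type arrays. Casq2 had 5.66, 3.06, 3.06, 3.66 and 3.59 on the mutant arrays, against 3.30, 2.99, 2.75, 3.05 and 2.93 on the wild-type arrays, and an exact permutation p of 0.0476, unadjusted. The fast calsequestrin had the narrowest range of the fast class (1.64), with 7.04 as its lowest level on any array. Myoz1, the fast calsarcin of the Z-disc, had 7.73, 3.20, 3.65, 5.86 and 6.00 on the mutant arrays, against 3.34, 4.33, 3.59, 8.01 and 2.78 on the wild-type arrays. Myoz2, the slow and cardiac calsarcin, had 8.25, 5.17, 5.62, 6.35 and 6.68 on the mutant arrays, against 5.29, 5.18, 5.36, 5.38 and 5.22 on the wild-type arrays. For Myoz2, 4 of 5 mutant arrays lay above every wild-type array and mutant F13 lay just below all of them (change 1.13, standard error 0.46, adjusted p = 0.28, limma). Without mutant F12 its change was 0.67.

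The other fast members have no slow partner among the pairs. Pvalb, the calcium buffer of the fastest fibres, and Actn3, the fast alpha-actinin, reached 8.85 and 8.12 on mutant F12, against 10.41 and 10.23 on wild-type F16, their highest array. The other wild-type arrays ranged from 2.09 to 3.76 for Pvalb and from 3.22 to 4.44 for Actn3. Atp2a1, the calcium pump of fast fibres, was highest on mutant F12 at 11.13, with wild-type F16 next at 10.43. Across the 14 fast genes, F12 minus F16 had a median of 0.39 log2 units and ran from -2.54 to 7.89. For the 10 slow genes this median was 4.07.

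The developmental chains varied little. Myh3, the embryonic chain, had 3.39, 3.13, 3.30, 3.09 and 3.11 on the mutant arrays, against 3.08, 3.09, 2.99, 3.06 and 3.08 on the wild-type arrays. Myh8, the perinatal chain, had 3.43, 3.30, 3.34, 3.47 and 3.68 on the mutant arrays, against 3.31, 3.34, 3.21, 3.42 and 3.35 on the wild-type arrays. Their ranges were 0.40 and 0.46 log2 units, which lie at the 27.5th and 37.4th percentiles of all tested probe sets, and all values stood near the array medians of 3.14 to 3.20. For Myh8 the 4 highest arrays were nevertheless mutant F20, F19 and F12 and wild-type F16. Myh8 did not pass the test (change 0.12, adjusted p = 0.476, limma). Myh3, too dim for the fit, had an exact permutation p of 0.0159, unadjusted, for a difference of 0.14 log2 units, with 4 mutant arrays above every wild-type array. Myod1, a regulator of muscle identity, had 2.25, 2.23, 2.26, 2.24 and 2.27 on the mutant arrays, against 2.24, 2.25, 2.22, 2.23 and 2.24 on the wild-type arrays. Myf6, the regulator most abundant in adult fibres, had 4.22, 2.55, 2.56, 2.65 and 4.25 on the mutant arrays, against 2.54, 2.56, 2.53, 3.27 and 2.55 on the wild-type arrays. The 4 highest arrays for Myf6 were again mutant F20, F12 and F19 and wild-type F16, although mutant F19 stood only just above the 6 others (exact permutation p = 0.183).

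The cardiac troponins followed other arrays. Tnnt2, the cardiac troponin T, had 6.04, 5.98, 6.20, 8.57 and 6.59 on the mutant arrays, against 8.02, 6.27, 5.88, 6.55 and 6.83 on the wild-type arrays. Tnni3, the cardiac troponin I, had 2.70, 2.68, 2.70, 3.96 and 2.70 on the mutant arrays, against 3.07, 2.70, 2.57, 3.09 and 2.60 on the wild-type arrays. Mutant F19 was highest for both genes, and wild-type F11 was the second for Tnnt2 and the third for Tnni3, although F11 was the lowest array for Acta1. Of 14 measured genes of heart muscle that are no members, 3 ranged over more than 2 log2 units, namely Myh6, Myl7 and Myl4, and each of these was highest on mutant F19 and next on wild-type F11. Mutant F19 was the highest array for 5 of the 14, and for 7.475% of all tested probe sets. Myh6, the cardiac alpha myosin heavy chain, had 3.10, 4.04, 4.68, 8.17 and 3.71 on the mutant arrays, against 6.66, 3.60, 3.41, 5.99 and 4.74 on the wild-type arrays. Myl7, the atrial light chain, had 2.46, 2.40, 2.48, 6.55 and 2.50 on the mutant arrays, against 5.69, 2.47, 2.42, 4.57 and 3.58 on the wild-type arrays. Mutant F12, highest for 35 members, was among the lowest for both. Nppa, the atrial natriuretic peptide, was at 2.46 to 2.56 on mutant arrays and 2.44 to 2.86 on wild-type arrays. Neither troponin passed its test between the groups (Tnnt2 change -0.03, adjusted p = 0.983, limma; Tnni3 exact permutation p = 0.762). Myh7, Tnnc1, Myl2, Myl3, Casq2 and Myoz2 are also expressed in heart. On mutant F12 and F20, where these were high, Myh6 was at 3.10 and 3.71, and on mutant F19 it was at 8.17. The part of heart tissue in their levels was not tested.

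**Figure D5:**
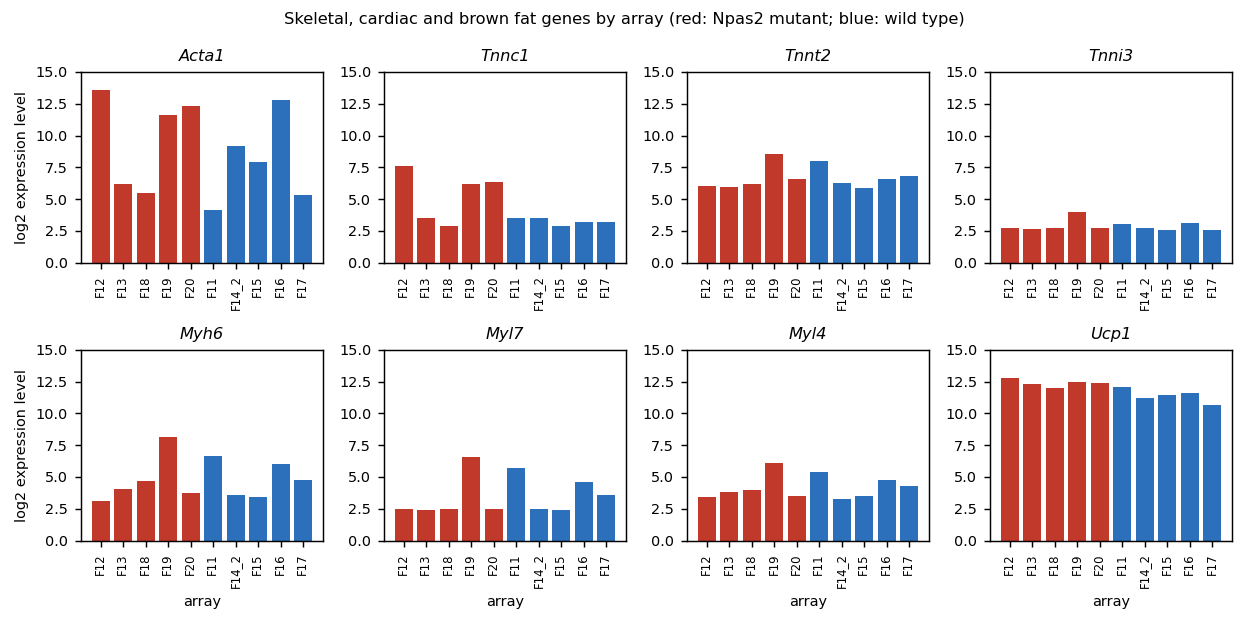
Log2 level by array of 4 members (Acta1, Tnnc1, Tnnt2, Tnni3), 3 cardiac genes (Myh6, Myl7, Myl4) and the brown fat gene Ucp1, with Npas2 mutant arrays in red on the left and wild-type arrays in blue on the right. Tnnt2 and the 3 cardiac genes peak on mutant F19 and wild-type F11, while Acta1 peaks on mutant F12 and wild-type F16.

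The scaffold of the sarcomere mostly followed Acta1. The mean of 8 of its 9 measured members was higher in the mutant, with a median change of 1.50, and none of the 7 tested passed (0 of 7, adjusted p 0.408 to 0.757, limma; 0 at an unadjusted p under 0.05). Ttn, the titin that spans from Z-disc to M-band, had 12.63, 4.22, 3.38, 10.43 and 10.97 on the mutant arrays, against 5.69, 7.77, 7.11, 11.03 and 3.18 on the wild-type arrays. Neb, the ruler of the skeletal thin filament, had 3.07 to 8.65 on mutant arrays and 3.07 to 7.41 on wild-type arrays. Myot, the myotilin of the Z-disc, had the largest change of the class, at 2.03 (adjusted p = 0.518, limma). Actn2, the alpha-actinin of all sarcomeric Z-discs, was nearer to the slow forms, with mutant F12 at 8.52, F20 at 6.76 and F19 at 5.26, against 2.94 to 4.52 on wild-type arrays. Smpx, a small protein of the costamere, was high on mutant F12, F20 and F19 and wild-type F16, and Tcap, the titin cap, stood at 6.70 to 9.89 on all arrays. Mybph, a myosin-binding protein H, was flat at the low end, ranging over 0.11 log2 units.

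Calcium release genes repeated the pattern at lower levels. All 6 had a higher mean in the mutant, by 0.01 (Cacng1) to 1.92 (Sln), and none of the 3 tested passed (0 of 3, adjusted p 0.333 to 0.775, limma; 0 at an unadjusted p under 0.05). Sln, the sarcolipin that restrains the calcium pump, had 7.62, 2.77, 2.69, 6.20 and 6.37 on the mutant arrays, against 3.71, 3.46, 2.92, 3.01 and 2.98 on the wild-type arrays. It followed the slow forms, with wild-type F16 at 3.01. Ryr1, the release channel, had 7.84, 2.35, 2.10, 5.24 and 6.01 on the mutant arrays, against 2.36, 2.85, 2.52, 6.84 and 2.51 on the wild-type arrays, and so followed the fast forms. Cacna1s, the voltage sensor of the channel, Trdn, the triadin that anchors calsequestrin, and Jph1, a junctophilin joining the membranes, had mutant F12 highest and wild-type F16 second. Jph1, the brightest of the class, had 6.13, 4.10, 4.36, 4.54 and 5.34 on the mutant arrays, against 4.35, 4.33, 4.27, 5.77 and 4.44 on the wild-type arrays. Cacng1, a further channel subunit, was flat, ranging over 0.12 log2 units.

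Of the metabolic members Mb followed the slow forms, and the other 5 were high on wild-type F16 like the fast forms. Mb, the myoglobin of oxidative fibres and the brightest of the class, had 11.79, 4.43, 3.51, 9.04 and 10.20 on the mutant arrays, against 5.20, 6.93, 5.34, 5.46 and 3.62 on the wild-type arrays. Mutant F12 was 80.1-fold above wild-type F16, where Mb stood with F11 and F15. Eno3, the muscle enolase, had 9.18, 4.77, 4.42, 7.62 and 7.70 on the mutant arrays, against 4.73, 5.44, 5.26, 9.61 and 4.78 on the wild-type arrays, with wild-type F16 the highest. Pygm, the glycogen phosphorylase of muscle, and Pgam2, the muscle phosphoglycerate mutase, were at 8.47 and 8.35 on mutant F12, against 8.48 and 8.12 on wild-type F16. Ampd1, the muscle adenylate deaminase, was at 5.44 on mutant F12, against 4.53 on wild-type F16 and 2.02 to 2.04 on the other wild-type arrays. All 6 metabolic members had a higher mean in the mutant, and none of the 5 tested passed (0 of 5, adjusted p 0.432 to 0.875, limma; 0 at an unadjusted p under 0.05).

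Tpm3 and Ldb3 had lower means in the mutant on their chosen probe sets, whose ranges were 0.21 and 0.64 log2 units. Tpm3, a tropomyosin with a slow muscle form and cytoplasmic forms in other cells, had 8.82, 8.86, 8.91, 8.89 and 8.87 on the mutant arrays, against 9.02, 8.96, 8.98, 9.03 and 8.89 on the wild-type arrays. A dimmer Tpm3 probe set had 6.70, 3.40, 2.87, 5.60 and 6.10 on the mutant arrays, against 2.94, 3.35, 2.79, 2.90 and 3.04 on the wild-type arrays, the order of the slow forms. Its change was 1.93 (adjusted p = 0.214, limma). Ldb3, a Z-disc protein that is also expressed outside skeletal muscle, likewise had a dimmer probe set that varied, with 8.78, 4.18, 4.19, 6.23 and 7.35 on the mutant arrays, against 4.84, 4.85, 4.64, 7.47 and 4.67 on the wild-type arrays. The rule of the highest mean therefore picked, for both genes, the probe set that did not vary. Over all 85 probe sets of the members 52 were tested, and 0 passed the adjusted limma test.

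Other genes of striated muscle, from a list of genes that are no members, had smaller ranges. The members were chosen knowing that they vary, so that difference was built into the choice and tests nothing. Of 62 measured, 22 ranged over more than 2 log2 units, where 0.94% of tested probe sets did. The median range was 1.08, beside 5.19 over the members. The brightest probe set stood for each gene here too, and for Tpm2 it ranged over 0.51, while another ranged over 6.65. The median change of the listed genes tested was 0.05, beside 1.29 over the members tested. Of the 62, 35 were tested and 0 passed (4 at an unadjusted p under 0.05, limma, a level reached by 15.3% of all tested probe sets). Mutant F12 was the highest array for 36 of the 62, and for 10.23% of all tested probe sets. Ckmt2, the mitochondrial creatine kinase of muscle and the gene of that list with the widest range (7.72), had 10.60, 3.52, 2.997, 7.92 and 8.76 on the mutant arrays, against 3.45, 4.70, 4.34, 6.79 and 2.88 on the wild-type arrays. Chrna1, the receptor subunit of the neuromuscular junction, was flat, with a range of 0.035 log2 units over the 10 arrays. The mean level of 11 smooth muscle genes was 10.93 to 11.19 on mutant arrays and 11.12 to 11.37 on wild-type arrays. None of these passed the adjusted limma test (0 of 11, with 5 at an unadjusted p under 0.05, where 15.3% of all tested probe sets reached that level). Their median change was -0.19. The mean level of 12 brown fat genes was higher on every mutant array, at 8.09 to 8.53, than on any wild-type array, at 7.39 to 7.87. In the limma fit 0 of 11 tested genes were called and 7 had an unadjusted p under 0.05, beside the same 15.3%. Not all of the list was higher in the mutant: Prdm16 changed by -0.27 and Ebf2 by -0.02. Ucp1, the uncoupling protein of brown fat, was at 12.02 to 12.81 on mutant arrays and 10.66 to 12.09 on wild-type arrays, with 11.62 on wild-type F16. Its highest value was on mutant F12, as for most members, but mutant F13 and F18, which were low in muscle transcripts, had 12.33 and 12.02. The part of fat in the members' levels was not tested.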

How the data were processed

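Log2 expression values, 1 for each probe set and array, were used as the authors deposited them, with summarisation and normalisation already done. Per the submitters' processing notes GCRMA and MAS5 were used, but neither their versions nor which of them produced the values is stated. That the values are log2 was read from their span of 1.10 to 14.74 and from upper quartiles per array of 5.40 to 5.55. Of 45101 probe sets 64 were controls. An old platform annotation paired 34958 of them with a single gene and 932 with several, and symbols were updated by gene identifier. Myh7 also lies on probe sets shared with Myh6, which were not used. The members, gene lists and isoform pairs were chosen with earlier results of these data known.

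Groups came from the sample titles. The mutant minus wild-type difference was fitted in limma 3.58.1 (R 4.3.3) over all tested probe sets without covariates, as the series design has strain as its only factor, with Benjamini-Hochberg adjustment and a threshold of 0.05. The fit was tested on simulated data. Members too dim for the filter, and the 9 fast minus slow differences, were given exact permutation tests, two-sided, over every split of the arrays into 5 and 5. Values are printed array by array for the myosin heavy chains, the brightest member of each class, Acta1, Ckm, both members of each isoform pair and the myogenic regulators. Other members are given by ranges, counts and the extremes of their class. Ttn, Sln, Ryr1, Eno3 and the second probe sets of Myh1, Tnni2, Tpm3 and Ldb3 were added to these after their values were seen. Tpm2, Prdm16 and Ebf2, of the other lists, were also named after their values were seen. Promoters came from RefSeq, the first listed for each gene, and motifs were found by letter matching. Alternatives in filter, normalisation, variance model, test, threshold, probe set choice and arrays left out are given in the closing section. No hybridisation or scan dates are stated, so batches were not examined. Precision is limited by there being 5 arrays a group.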

Additional observations from a re-analysis of the deposited data

Results flagged for a closer look

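Within each group of 5 arrays, a gap test for a lone extreme value (Dixon's ratio of the gap to the whole range, critical value 0.71) was applied to the 51 members and the 9 fast minus slow differences. It marked 25 of 120 groups of values. The critical value marks about 1 in 20 groups of normally distributed values. The members were chosen knowing that they vary, and other probe sets were not examined, so this count tests nothing. Because members vary together, these are not 25 separate events.

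On wild-type F16 alone, 16 members stood apart from the other wild-type arrays. The ratios were 0.799 for Pvalb, 0.826 for Actn3 and 0.748 for Mybpc2 among fast forms, and 0.766 for the slow Mybpc1. In the scaffold they were 0.817 for Neb, 0.742 for Myot and 0.876 for Smpx. Among calcium release genes they were 0.891 for Ryr1, 0.926 for Cacna1s, 0.864 for Trdn and 0.882 for Jph1. In metabolism they were 0.855 for Eno3, 0.995 for Ampd1, 0.799 for Pygm and 0.919 for Pgam2, and Myf6 had 0.960. Of the isoform differences, Myl1 minus Myl3 (0.773), Mybpc2 minus Mybpc1 (0.716) and Casq1 minus Casq2 (0.916) stood apart on the same array.

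Among mutant arrays, Casq2 was high on F12 at 5.66, against 3.06 to 3.66 on the other mutant arrays (ratio 0.770), and Casq1 minus Casq2 was low there (0.790). The cardiac troponins Tnnt2 (0.765) and Tnni3 (0.983) were high on mutant F19. On wild-type F14_2, Myh7 at 3.14 (0.854) and Myl2 at 4.36 (0.815) lay above the other wild-type arrays, which ranged from 2.48 to 2.57 and from 2.22 to 2.61.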

How the results depend on the processing

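No member passed the adjusted limma test under any alternative run. The count of all probe sets called was 48. It was 17 without a filter, 13 by a one-way analysis without moderated variance and 191 at a threshold of 0.1. Leaving out an array in turn gave 9 (without wild-type F16) to 43 (without wild-type F14_2). Of the dim members, 3 had an exact p under 0.05, but 1 after median centring, 1 after quantile normalisation and 0 to 5 with an array left out.

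The direction turned, at sizes near 0, for Myod1 (-0.0076 after centring, -0.0016 after quantile normalisation) and Tnnt2 (0.0082 after quantile normalisation). With the mean of all probe sets of a gene it turned for Tpm3 (0.60 in place of -0.11) and for the pair Tnni2 minus Tnni1 (-0.081). With an array left out, changes ran from -0.50 to 0.30 for Tnnt2, -0.11 to 0.21 for Tnni3, -0.047 to 0.55 for Jph1 and -0.053 to 0.74 for Tcap. The pairs ran from -1.97 to 0.31 for Myh4 minus Myh7, -0.76 to 1.39 for Tnnt3 minus Tnnt1, -1.34 to 0.88 for Tnnc2 minus Tnnc1, -0.63 to 0.76 for Myl1 minus Myl3 and -0.65 to 0.62 for Myoz1 minus Myoz2. Each of these 5 pairs was highest without wild-type F16 and lowest without wild-type F17. The causes were not tested. No paired analysis was possible because the arrays of the groups share no replicate label. The number of members with a higher mean in the mutant stayed between 45 and 50. Levels below the array medians of 3.14 to 3.20 are dim, which limits what differences among them can show.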

Other observations

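The 100 tested probe sets with the widest range between arrays, from 2.85 to 10.04 log2 units, held 39 probe sets of 33 members and 11 of other striated muscle genes. A further 47 were in none of the gene lists, and those named here were chosen after their values were seen. The probe set shared by H19 and Mir675, an imprinted non-coding RNA and a microRNA within it, had 9.30, 3.27, 3.50, 6.08 and 7.42 on mutant arrays F12, F13, F18, F19 and F20, against 3.24, 4.28, 3.63, 3.81 and 3.24 on wild-type arrays F11, F14_2, F15, F16 and F17. That is the order of the slow forms, with wild-type F16 low. Txlnb, Pdlim5 and Hjv were also highest on mutant F12, at 7.00, 8.12 and 6.98, and on wild-type arrays highest on F16, at 5.46, 6.48 and 5.97.

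Genes of sympathetic neurons varied on other arrays. Npy, a neuropeptide, had 7.27, 8.13, 4.29, 4.73 and 7.29 on the mutant arrays, against 4.20, 3.93, 6.64, 3.17 and 8.50 on the wild-type arrays. Th and Ddc, enzymes of noradrenaline synthesis, and Slc6a2, its transporter, were also highest on wild-type F17, which was low in muscle transcripts. Among mutant arrays they were highest on F13, which was low in muscle transcripts as well. Npy was, however, low on mutant F18 and wild-type F11, also low in muscle transcripts. It was high on mutant F12 and F20, which were rich in them. Dbh, a further enzyme of that pathway, did the same on 2 of its probe sets, while another was highest on mutant F20 (5.35, against 4.85 on wild-type F17). The immediate early genes Fos and Atf3 were highest on wild-type F16 (9.96 and 7.90) and next on wild-type F17 (9.55 and 7.78). They were thus high on a wild-type array rich in fast muscle transcripts and on one poor in them. Nr4a1, a further immediate early gene, was highest on mutant F20 at 9.53, with wild-type F16 at 9.52 and F17 at 9.47. Ccn1 was highest on wild-type F16 on some of its probe sets and on wild-type F15 on others.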
